A study of Homo sapiens with 8 samples.

Results

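The genes described here are the 234 expressed genes of human chromosome 13 in SKOV3, an established ovarian cancer cell line. They are the rows of the count table that lie on chromosome 13 of GRCh38 and have a summed count of at least 80 over the 8 libraries. The table holds 67008 genes, of which 1333 lie on this chromosome. Of those, 647 had no count in any library, and 452 had a summed count between 1 and 79. Just inside the threshold were the pseudogene RPSAP54 and ENSG00000262198, each with 83 counts, and NEK5 with 80. Just outside it were INTS6-AS1 with 77 counts and SPART-AS1 and LINC00462 with 75 each. ERCC5 (24 counts), POSTN (18) and MIR17HG (14) were also below it and have no values here. By type, 200 of the 234 are protein coding, and 34 are antisense RNAs, other long non-coding RNAs or pseudogenes.

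The RNA came from 4 SKOV3 lines, all untreated. They comprise the parental culture, the empty vector clone EV 1B9, and the PDE10A knockout clones KO 5H5 and KO 2F4. PDE10A degrades the second messengers cAMP and cGMP. Each line has 2 libraries from separate culture passages, and each of EV 1B9, KO 5H5 and KO 2F4 is 1 clone, so what belongs to a clone and what belongs to its vector or knockout cannot be told apart. Libraries are numbered 1 and 2 within a line, 2 being the one whose title ends in UnTx, a suffix the labels leave unexplained.

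Chromosome 13 is acrocentric, so its protein-coding genes lie on the long arm, and it is among the chromosomes poorest in genes. It is best known in cancer for RB1, whose protein holds back E2F transcription factors and entry into S phase, and for BRCA2, whose protein serves the repair of broken DNA by homologous recombination. Both are tumour suppressors in ovarian carcinoma. The chromosome also carries the collagen IV pair COL4A1 and COL4A2, the Hippo kinase LATS2, the E2F partner TFDP1 and the epithelial transcription factor KLF5.

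Counts assigned to genes summed to 15483683 to 28648044 per library, and 24.1% to 44.6% of counted reads had no single gene, most of all in parental 1 and, at 33.4%, in KO 2F4 2. The number of member genes with at least 1 count was 198 in KO 2F4 2, 215 in parental 1 and 221 to 234 in the others. The targeted gene PDE10A stood at 2.54 to 9.03 CPM, counts relative to library size scaled with edgeR's TMM factors, in the parental and EV 1B9 libraries. It stood at 0.196 to 0.437 CPM in both KO 5H5 libraries and KO 2F4 1, but at 2.25 in KO 2F4 2, near the lowest control. The epithelial markers KRT7, KRT8, KRT18, KRT19, ERBB2 and PAX8 were at 180 CPM or more in every library, while MUC16 and EPCAM never passed 9.99 CPM. Of 8 markers of blood, endothelium and fibroblasts, 1 to 6 had a count per library. Their summed level was 125 to 137 CPM in the parental, 23.3 and 120 in the EV 1B9, 913 and 1985 in the KO 5H5, and 3.28 and 34.0 CPM in the KO 2F4 libraries. Nearly all of it was COL1A1, CD3E was at 0 everywhere, and the part of these markers in the results was not tested.

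Chromosome 13 took up the largest share of gene counts in EV 1B9. The share was 0.393% and 0.603% in the parental libraries, 1.04% and 1.07% in EV 1B9, 0.379% and 0.572% in KO 5H5, with 0.387% and 0.337% in KO 2F4. Both EV 1B9 libraries lay above the other 6, which overlapped among the other lines. Exact binomial 95% intervals were narrow, for example 0.390% to 0.396% in parental 1, and like all such intervals cover counting error only. Without the 6 most counted members, the shares were 0.203% and 0.324% in parental, 0.607% and 0.558% in EV 1B9, 0.185% and 0.282% in KO 5H5, with 0.222% and 0.135% in KO 2F4. The order of EV 1B9 above all others therefore did not rest on these 6 genes.

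The same order held for the typical gene. In each library, the median log2 CPM of the member genes, each centred on its mean over libraries, was set against the median of 13442 genes of other chromosomes with the same minimum count. This difference was -0.13 and 0.16 in the parental libraries, 0.78 and 1.03 in EV 1B9, -0.40 and -0.11 in KO 5H5, with -0.46 and -0.64 in KO 2F4. The libraries of KO 2F4 lay lowest and those of EV 1B9 highest, while KO 5H5 2 lay beside parental 1. Because the chromosome was picked for this shift, these values are a description with no test. In bulk RNA, fewer cells of a type and less RNA per cell cannot be told apart. DNA was not analysed here.

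The libraries also differed in how the level of genes on other chromosomes moved with GC content, with a rank correlation as low as -0.48 in EV 1B9 2 and as high as 0.41 in KO 2F4 2. Member genes have a median GC content of 43.2%, against 49.2% for the other genes. A correction for GC content and gene length was therefore fitted in each library on the genes of other chromosomes. With it, the differences became 0.15 and 0.25 in parental, 0.50 and 0.59 in EV 1B9, -0.30 and -0.23 in KO 5H5, with -0.42 and -0.42 in KO 2F4. The 4 lines then had no overlap, and the pooled spread between libraries of a line shrank from 0.18 to 0.05 (SD). The correction thus took away part of the distance between EV 1B9 and parental and left the order of the lines as it was.

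**Figure D1:**
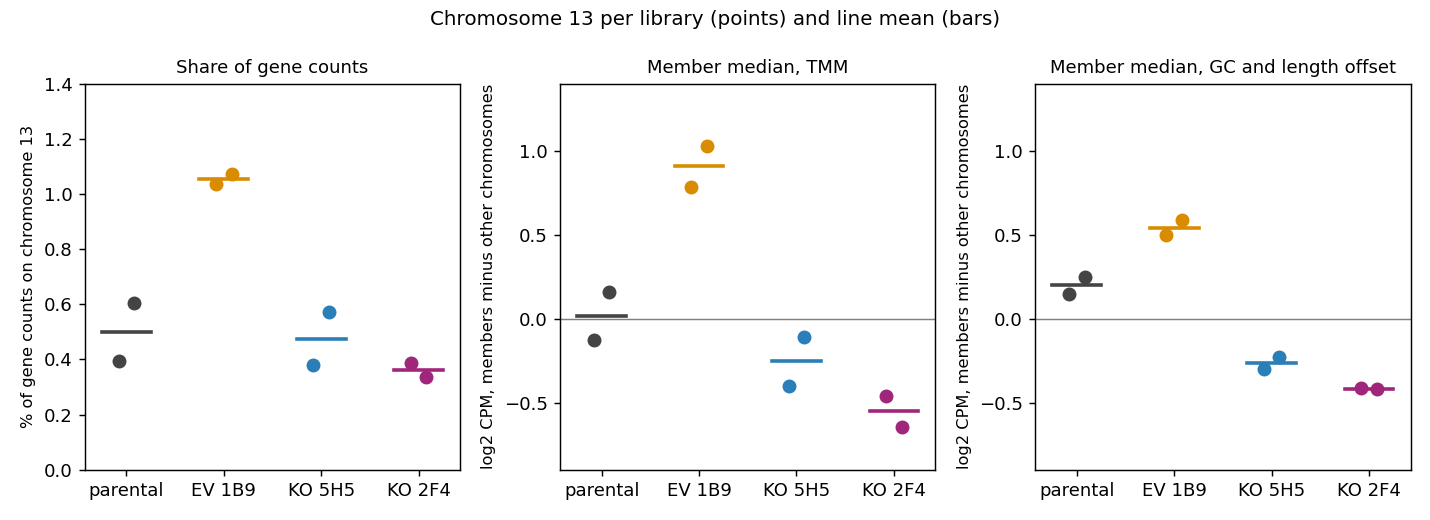
Chromosome 13 in each of the 8 libraries (points, replicate 1 left and 2 right) with the line mean (bars): the share of gene counts in percent, and the median log2 CPM of the 234 genes minus that of other chromosomes, with TMM alone and with the GC and length correction. EV 1B9 is highest in each panel, at 1.04% and 1.07% of counts, and KO 2F4 has the lowest mean.

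Between lines, the median shift of the chromosome is the median difference of its genes minus that of genes on other chromosomes. EV 1B9 stood 0.93 above parental on the log2 scale, or 0.33 with the GC and length correction. KO 5H5 stood 0.20 below parental, or 0.40 with the correction, and KO 2F4 stood 0.64 below, or 0.65. Against EV 1B9, KO 5H5 was lower by 1.11 and KO 2F4 by 1.48, which became 0.79 and 1.02 with the correction. These comparisons share the EV 1B9 or parental libraries and are not independent of each other. KO 2F4 stood 0.40 below KO 5H5, or 0.19 with the correction. Both knockout clones together stood 0.88 below both controls, or 0.73. Between the 2 libraries of 1 line the same shift was at most 0.26, and at most 0.11 with the correction.

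**Figure D2:**
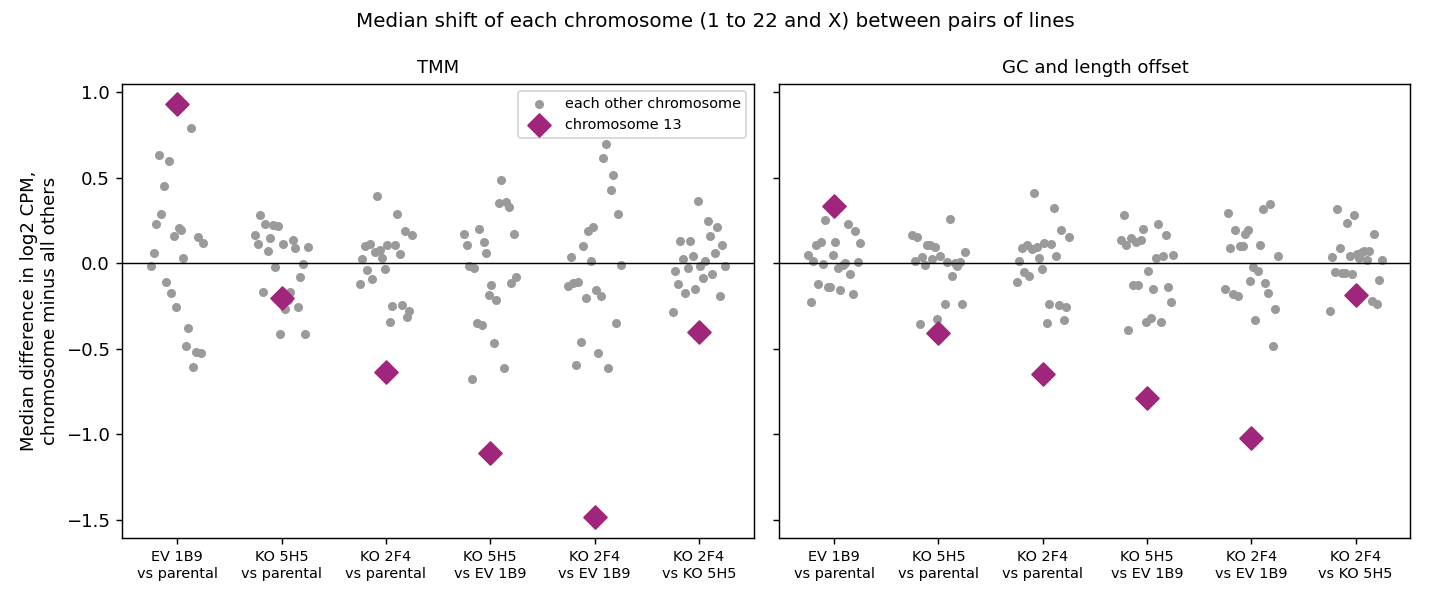
Median shift in log2 CPM of chromosome 13 (diamonds) and of every other chromosome from 1 to 22 and X (grey points) between pairs of lines, with TMM (left) and with the GC and length correction (right). Chromosome 13 is the lowest of all in both clones against EV 1B9, at -1.11 and -1.48, and the highest in EV 1B9 against parental, at 0.93.

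Chromosome 13 had the most extreme median of chromosomes 1 to 22 and X in most pairs. In EV 1B9 against parental it was highest at 0.93, followed by chromosome 18 at 0.79, and with the correction by chromosome 8 at 0.25 against its own 0.33. In KO 5H5 against EV 1B9 the next lowest was chromosome 4 at -0.68, and in KO 2F4 against EV 1B9 chromosome 18 at -0.61. With the correction those places went to chromosome 4 at -0.39 and chromosome 21 at -0.49. In KO 5H5 against parental, chromosomes 11, 22, 14, 19 and 15 were lower than chromosome 13 with TMM, at -0.42 to -0.22 against -0.20, while chromosome 13 was lowest with the correction, beside chromosome 14 at -0.40. In KO 2F4 against KO 5H5, chromosome 13 was lowest with TMM but not with the correction, where chromosome 1 was at -0.28.

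The difference of both knockout clones from EV 1B9 ran along the whole chromosome rather than in 1 segment. In a running median of 21 neighbouring member genes, all 214 windows were above 0 in EV 1B9 against parental, and 192 with the correction. All 214 were below 0 in KO 5H5 against EV 1B9 and in KO 2F4 against EV 1B9, with and without the correction. Against parental, 201 were below 0 in KO 5H5 and 213 in KO 2F4, or 214 and 213 with the correction. KO 2F4 against EV 1B9 was lowest, at -2.53, around LMO7 at 75.6 Mb, and least low, at -0.63, around ANKRD10 at 110.9 Mb. In KO 5H5 against EV 1B9 the lowest window, at -1.55, lay around SLC25A30 at 45.4 Mb, and the least low, at -0.36, around NAXD-AS1 at 110.6 Mb. In 10 Mb steps of gene start, the 30 genes beyond 110 Mb had the highest median GC content, 50.1%, and a shift of -0.73 in KO 2F4 against EV 1B9, or -0.92 with the correction. The 19 genes between 70 and 80 Mb had 40.8% GC and shifts of -2.43 and -1.62, though this step is thin. The 47 genes between 40 and 50 Mb, where RB1 lies, stood at -1.75 and -1.04. In EV 1B9 against parental, the 19 genes between 50 and 60 Mb stood at 0.17 with TMM and -0.39 with the correction, and 3 genes between 80 and 90 Mb at -0.25 and -0.84, both thin steps. The other 9 steps were above 0 with both, from 0.63 to 1.42 and from 0.18 to 1.05. Of these, the steps from 10, 60, 70 and 100 Mb are thin as well, with 6, 4, 19 and 17 genes. Those from 60 and 70 Mb are the highest with TMM, both at 1.42, and that from 60 Mb with the correction. Against parental the steps were uneven. KO 5H5 stood at -0.87 between 50 and 60 Mb and 0.057 between 90 and 100 Mb, or -1.26 and -0.086 with the correction. KO 2F4 stood at -1.15 between 70 and 80 Mb and -0.079 between 30 and 40 Mb, or -1.07 and -0.21. Of these steps, those from 50 and 70 Mb are thin. In thinner steps, the 4 genes between 60 and 70 Mb stood at -2.01 in KO 2F4, or -1.98 with the correction. The 6 genes between 10 and 20 Mb stood above 0, at 0.19 in KO 5H5 and 0.20 in KO 2F4, or 0.30 and 0.075.

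**Figure D3:**
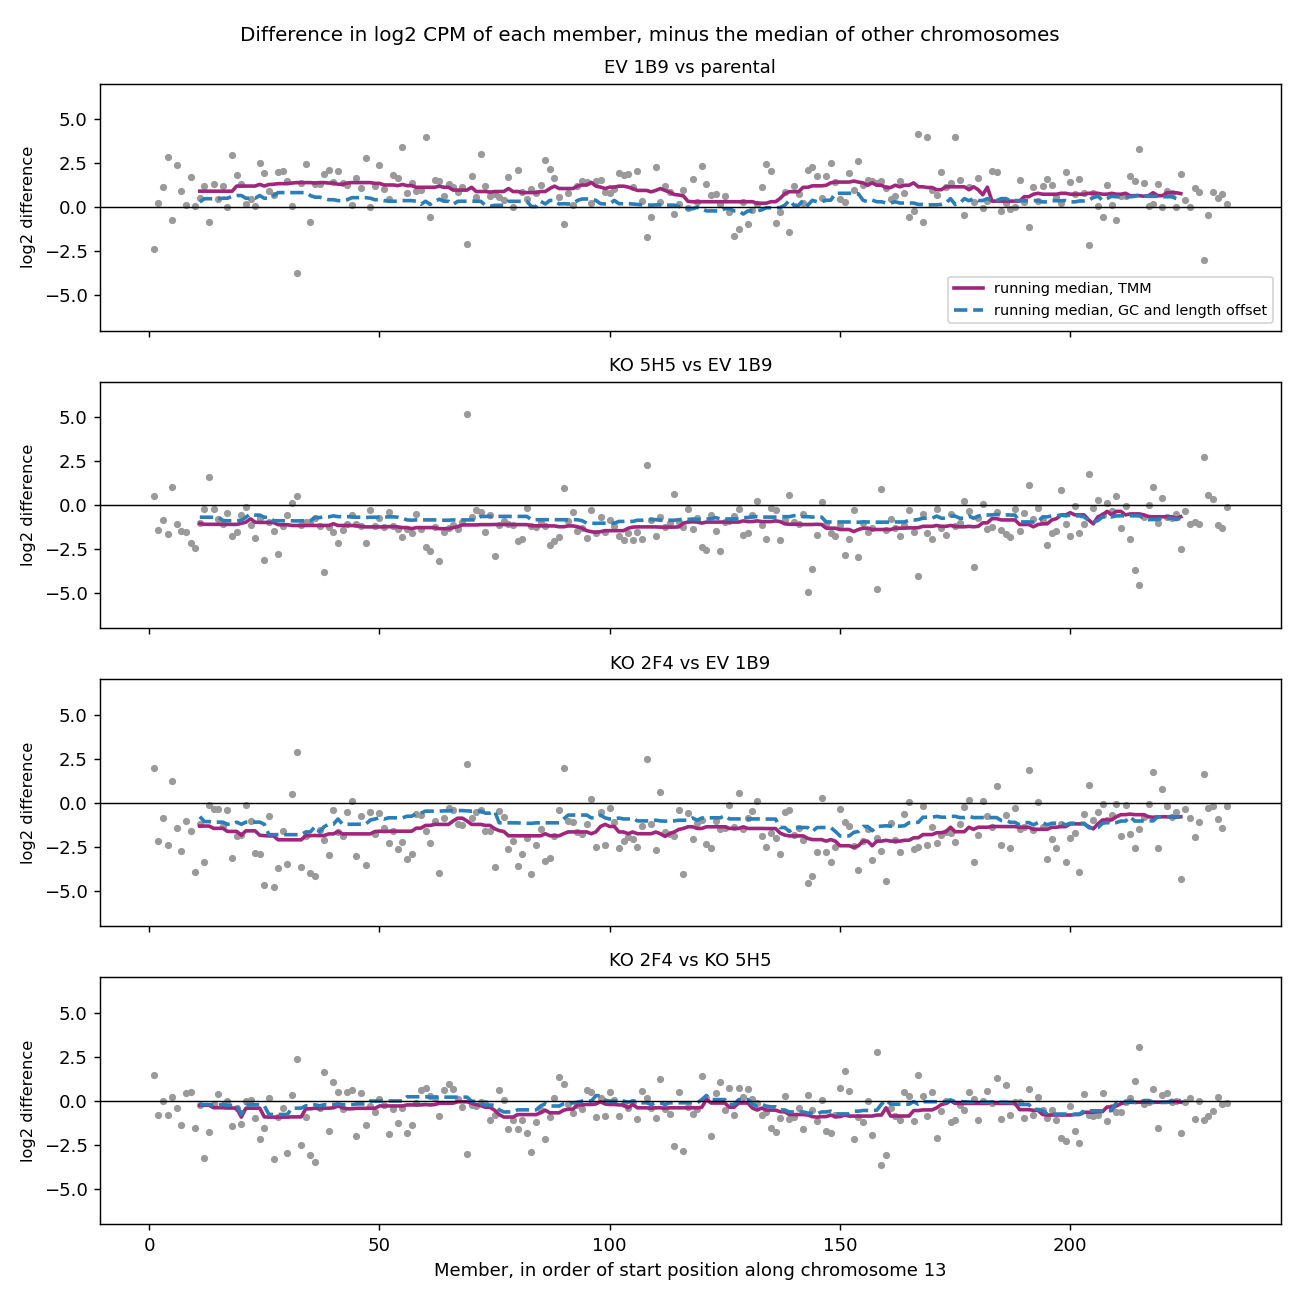
Difference in log2 CPM of each of the 234 genes (grey points, in order of start position) between pairs of lines, minus the median of other chromosomes, with running medians of 21 genes for TMM (solid) and for the GC and length correction (dashed). Both running medians stay below 0 from end to end in KO 5H5 and KO 2F4 against EV 1B9.

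Gene by gene, EV 1B9 had the highest mean log2 CPM of the 4 lines in 189 of the 234 genes (80.8%), against 38.1% of genes on other chromosomes. KO 2F4 had the lowest in 138 (59.0%), against 31.8%. With the GC and length correction these shares were 66.2% against 34.0% and 56.0% against 34.1%. Of the 225 members with enough counts for the class test, 46 (20.4%) had all 4 knockout libraries below all 4 control libraries, against 5.63% of all genes tested. Only 2 (0.889%) had all 4 above, against 4.67%. With the correction, 60 (26.7%) lay below and 2 above, against 7.34% and 6.63%. The 2 of the first count, the pseudogene PSME2P2 and ENSG00000275964, were looked up after their values were seen, and PSME2P2 is low, at 0.0806 to 1.71 CPM.

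Single genes were tested with edgeR's quasi-likelihood test, p-values being adjusted over all genes that passed the count filter, and are called at an adjusted p under 0.05. In KO 2F4 against EV 1B9, 60 of 234 members (25.6%) were called, all lower, while 13% of all 15551 genes tested were called, 6.09% lower and 6.87% higher. In KO 5H5 against EV 1B9, 15 were lower (6.41%) and 1 higher, the background being 4.39% in either direction, 1.69% lower and 2.69% higher. In the knockout clones against the controls, 6 of 225 tested were lower (2.67%) and none higher, with a background of 1.44%, or 1.10% lower. For this last contrast, 65 members had an unadjusted p under 0.05 and DESeq2 called 27, all lower, over a background of 5.81%. The share of all genes at an unadjusted p under 0.05 was not counted, here or below, so nothing is read from such counts of members. This contrast takes the 2 passages of a clone as independent. With counts summed per line, so that a line is the replicate, edgeR called 0 of 234 members, 33 had an unadjusted p under 0.05, and all 6 calls were lost. The chromosome was picked on these contrasts, so nothing is read from the counts against the background. With the GC and length correction the counts were 41, 19 and 12, over backgrounds of 11.9%, 5.99% and 3.83%, and 32 of the 60, 14 of the 16 and all 6 were among them.

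These counts depend on single libraries. In KO 2F4 against EV 1B9, 98 were called without parental 1, 101 without parental 2, 116 without KO 2F4 1 and 38 without EV 1B9 2. The background moved with them, to 15.9%, 16%, 21.1% and 7.98% of all genes. In KO 5H5 against EV 1B9, 62 were called without KO 2F4 1, 52 without KO 2F4 2, 33 without parental 2, 27 without parental 1 and 6 without KO 5H5 1, with backgrounds between 2.44% and 8.36%. In the knockout clones against controls, 1 was called without EV 1B9 1, EV 1B9 2, KO 5H5 1 or KO 2F4 1, and 3 without KO 5H5 2 or KO 2F4 2, with backgrounds of 0.467% to 1.07%. Calls kept whichever library was left out numbered 21 of 60, 2 of 16 and 1 of 6. The called genes of KO 2F4 against EV 1B9 had a median GC content of 40.6% and a median level of 7.82 CPM, against 43.8% and 3.79 CPM for the other 174.

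RB1 lies at chr13:48303726-48599436 on the plus strand, and the gene RCBTB2 overlaps its span. RB1 stood at 4.59 and 7.62 CPM in the parental libraries, 15.7 and 41.8 in EV 1B9, 6.34 and 11.4 in KO 5H5, with 6.91 and 2.11 in KO 2F4. Both EV 1B9 libraries were above the other 6, and the other 3 lines overlapped. RB1 was lower in KO 2F4 than in EV 1B9 (log2 fold change -2.66, SE 0.67, adjusted p = 0.0211). The call was lost without EV 1B9 2 (log2 fold change -1.81, adjusted p = 0.100) and with the GC and length correction (-1.48, adjusted p = 0.0668). RB1 did not pass in EV 1B9 against parental, where the log2 fold change was 2.23 ± 0.66 (SE, adjusted p = 0.103). It passed there without parental 2, either KO 5H5 library, either KO 2F4 library or EV 1B9 1, with adjusted p from 0.000564 to 0.0180. It did not pass in KO 5H5 against EV 1B9, at -1.69 ± 0.64 (SE, adjusted p = 0.177), but did without parental 2, EV 1B9 1 or either KO 2F4 library, at 0.0110 to 0.0387.

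Of the genes beside RB1, ITM2B and SUCLA2 were also highest in EV 1B9. ITM2B, just upstream, encodes a membrane protein cleaved in the secretory pathway. It stood at 101 and 212 CPM in parental, 341 and 328 in EV 1B9, 71.3 and 87.8 in KO 5H5, with 73.6 and 66.7 in KO 2F4, so every knockout library was below every control. Against EV 1B9 its log2 fold change was -2.07 ± 0.45 for KO 5H5 and -2.25 ± 0.45 for KO 2F4 (SE, adjusted p = 0.0174 and 0.00732), and the former call was lost without KO 5H5 1. With the correction the values were -1.54 (adjusted p = 0.0351) and -1.10 (adjusted p = 0.0870). SUCLA2, a subunit of the citric acid cycle's succinyl-CoA ligase, was at 27.1 CPM in EV 1B9 2, 12 in EV 1B9 1 and 1.82 to 5.90 elsewhere. Its call in KO 2F4 against EV 1B9 (log2 fold change -2.88, adjusted p = 0.00960) was lost without EV 1B9 2. SUCLA2 overlaps another counted gene. RCBTB2 did not pass in either clone against EV 1B9 and stood at 4.32 and 7.33 CPM in EV 1B9 beside 5.27 and 3.51 in parental.

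BRCA2 lies at chr13:32315474-32400266 on the plus strand. It was counted 0 and 23 times in the parental libraries, 65 and 172 times in EV 1B9, 19 and 19 times in KO 5H5, and 8 and 11 times in KO 2F4. In CPM these are 0 and 1.06, 1.75 and 6.93, 1.09 and 0.692, and 0.392 and 0.800. Both EV 1B9 libraries were highest, but they differed from each other more than the rest did. No comparison passed: the log2 fold change was -2.87 ± 1.30 in KO 2F4 against EV 1B9 (SE, adjusted p = 0.151), -2.29 ± 1.25 in KO 5H5 against EV 1B9 (adjusted p = 0.367) and 2.95 ± 1.29 in EV 1B9 against parental (adjusted p = 0.209). The first passed without parental 1 (adjusted p = 0.0323) or parental 2 (0.0307), and the third without KO 2F4 1 or KO 2F4 2, at 0.0138 and 0.0193, or without parental 2, which leaves parental at 0. Its neighbour PDS5B, a cohesin regulator, was at 5.37 and 18.4 CPM in EV 1B9 and 1.37 and 0.800 in KO 2F4, with a log2 difference of -3.43 ± 0.79 (SE, adjusted p = 0.0140), a call lost without EV 1B9 2 (adjusted p = 0.126). N4BP2L2, next to BRCA2, was at 3.97 and 6.57 CPM in EV 1B9 and 0.686 and 0.218 in KO 2F4, with a log2 fold change of -3.48 (adjusted p = 0.0214), lost without EV 1B9 2 or with the correction. STARD13, farther on, did not pass, at 10.7 and 13.5 CPM in EV 1B9 and 8.28 and 5.38 in KO 2F4.

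**Figure D4:**
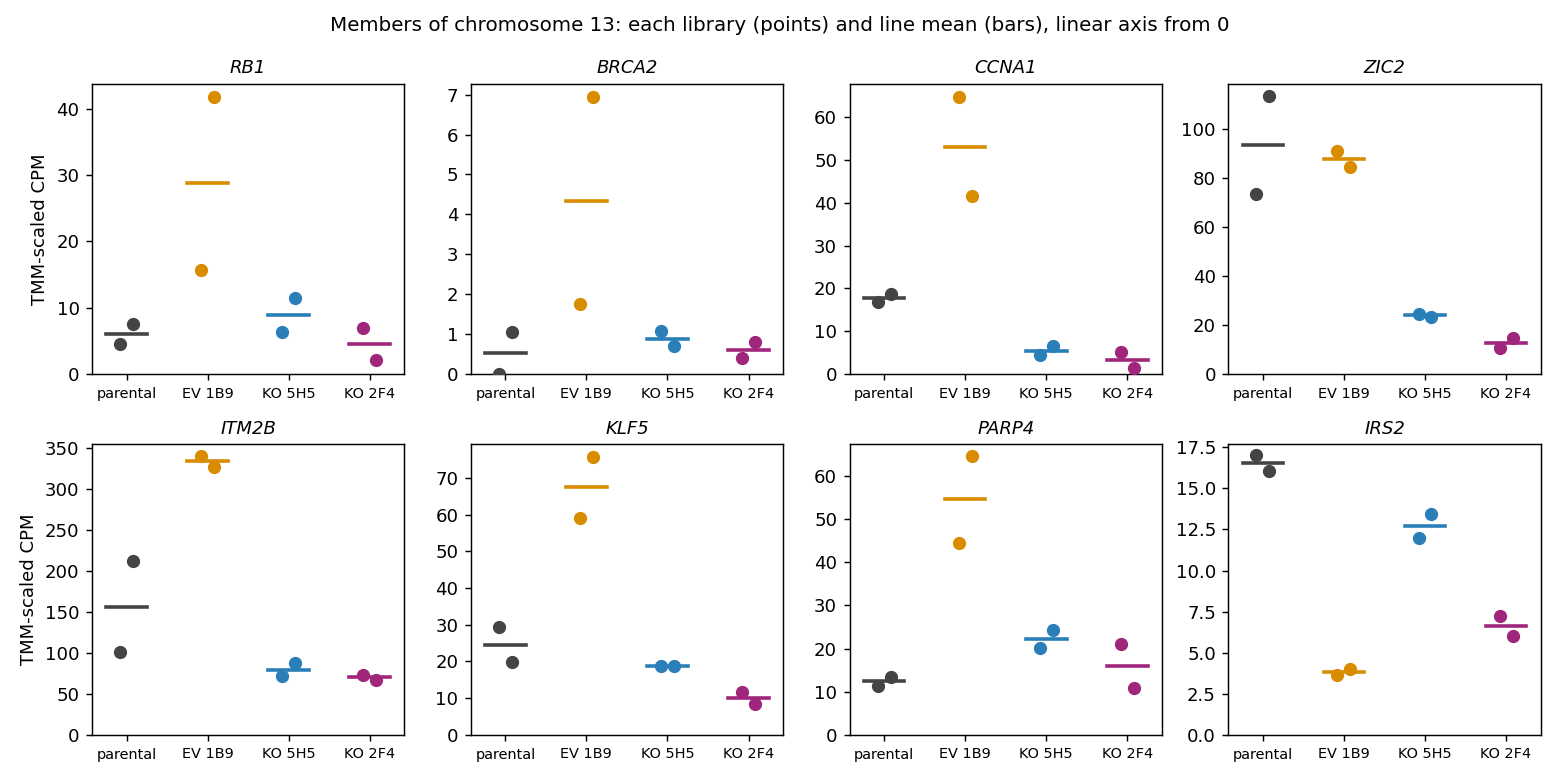
TMM-scaled CPM of 8 genes of chromosome 13 in each library (points, replicate 1 left and 2 right) with the line mean (bars), on linear axes from 0. RB1, BRCA2, KLF5 and PARP4 are highest in EV 1B9, ZIC2 is at 73.5 CPM or more in all controls and 24.7 or less in all knockout libraries, and IRS2 is lowest in EV 1B9.

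ZIC2, a zinc-finger transcription factor of neural development, was lower in each knockout clone than in each control line. It stood at 73.5 and 113 CPM in parental, 90.8 and 84.5 in EV 1B9, 24.7 and 23.2 in KO 5H5, with 10.6 and 14.5 in KO 2F4. The groups did not overlap, and unlike most members EV 1B9 was no higher than parental. The knockout clones were lower by 2.31 ± 0.36 (log2, SE, adjusted p = 0.00742), and this call held whichever library was left out and with the correction (adjusted p = 0.00862), but not with counts summed per line. ZIC2 was called lower in KO 2F4 against EV 1B9 (-2.80 ± 0.43, adjusted p = 0.00123) and against parental (-2.90 ± 0.43, adjusted p = 0.00413). It was also called lower in KO 5H5 against EV 1B9 (-1.87 ± 0.41, adjusted p = 0.0188) and against parental (-1.97 ± 0.42, adjusted p = 0.0456). The first of these 2 was lost without either KO 5H5 library, and the second without either of them or without parental 2.

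PCDH9, a protocadherin of cell adhesion, was lower in each knockout clone than in EV 1B9. It stood at 5.19 and 1.94 CPM in parental, 8.77 and 23.4 in EV 1B9, 0.571 and 0.219 in KO 5H5, with 0.0980 and 1.38 in KO 2F4. All 4 knockout libraries were below all controls, with a log2 difference of -4.16 ± 0.91 (SE, adjusted p = 0.0433), a call lost with counts summed per line. Its antisense partner ENSG00000285588 was called with it (adjusted p = 0.0419) and lost in the same way, and reads of the pair cannot be told apart where counting ignored strand. The promoters of ZIC2 and PCDH9 are shown because both genes were lower in each clone than in EV 1B9, with unlike sequences. They are RefSeq sequences of GRCh38.p14, cut to the bases before the start site that lie in no exon, at chr13:99981534-99981771 (plus strand) and chr13:67230446-67230586 (minus strand). Capitals mark the GC box GGGCGG or its reverse complement CCGCCC, overlapping copies included.
ZIC2: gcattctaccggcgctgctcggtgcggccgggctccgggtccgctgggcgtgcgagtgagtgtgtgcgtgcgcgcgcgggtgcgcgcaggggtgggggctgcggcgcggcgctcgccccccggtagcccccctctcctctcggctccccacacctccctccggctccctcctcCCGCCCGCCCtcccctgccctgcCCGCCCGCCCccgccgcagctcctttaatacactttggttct
PCDH9: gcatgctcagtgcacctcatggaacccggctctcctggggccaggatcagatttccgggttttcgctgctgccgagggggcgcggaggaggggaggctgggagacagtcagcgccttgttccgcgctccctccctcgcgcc
The ZIC2 stretch holds 4 such matches in 238 bases with 76.1% GC, and the PCDH9 stretch holds 0 in 141 bases with 68.1% GC. In the 250 bases before the start site, 55.7% of 291 promoters of the 190 matched members hold the motif, against 42.6% of 35116 promoters of all genes. The median GC content of these windows is 66% in members and 58% in all. The members are also expressed genes, while the 35116 promoters were not chosen by expression, so nothing particular to the chromosome is read from these shares. A match is a description of the letters and not a site of binding.

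CCNA1 encodes cyclin A1, a cyclin used chiefly in male meiosis. It stood at 16.9 and 18.7 CPM in parental, 64.7 and 41.6 in EV 1B9, 4.45 and 6.56 in KO 5H5, with 5.24 and 1.38 in KO 2F4. The 3 levels did not overlap: EV 1B9 highest, parental between, both knockout clones lowest. Against EV 1B9 its log2 fold change was -3.27 ± 0.59 for KO 5H5 (SE, adjusted p = 0.00533) and -3.98 ± 0.62 for KO 2F4 (adjusted p = 0.00129), and both calls held whichever library was left out and with the correction. In the knockout clones against both controls the difference was -3.0 ± 0.57 (adjusted p = 0.0207), a call lost without EV 1B9 1, EV 1B9 2, KO 5H5 1 or KO 2F4 1, at up to 0.0990, and with counts summed per line. DCLK1, a microtubule-associated kinase, was at 1.05 to 4.19 CPM in the controls and at 0.182 to 0.343 in the knockout clones. It was lower by 3.37 ± 0.74 (log2, SE, adjusted p = 0.0433), and the call was lost with counts summed per line or without any 1 of the 8 libraries, at up to 0.154. ITM2B, with a difference of -1.71 ± 0.39 (adjusted p = 0.0468), lost its call with counts summed per line and when any library other than parental 1 was left out. PCDH9 lost its call without either library of EV 1B9 or KO 5H5 or without KO 2F4 1, and its antisense partner also without KO 2F4 2.

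The genes were then read by function, with the medians of all tested genes at -0.13 in KO 2F4 and -0.10 in KO 5H5 against EV 1B9 (log2 fold change). With the correction, the medians of the 10 lists that follow lay between -1.49 and -0.46 in KO 2F4 and between -1.04 and -0.27 in KO 5H5, so none changed sign. Of all genes tested, 6.09% were called lower in KO 2F4 and 1.69% in KO 5H5, and of all members 25.6% and 6.41%. The lists were drawn from this chromosome, so their counts show nothing particular to a list. Against parental, the list medians were 0.86 to 1.44 in EV 1B9, -0.69 to 0.43 in KO 2F4 and -0.29 to 0.30 in KO 5H5. With the correction they were 0.10 to 0.77, -0.68 to 0.33 and -0.51 to 0.30. A lower level than in EV 1B9 is therefore not by itself a fall from parental. Of 5 members in the RB and E2F pathway, CCNA1, RB1 and ING1 were lower in KO 2F4 than in EV 1B9 and TFDP1 and CUL4A did not pass, with a list median of -2.13. With the correction TFDP1 passed in place of RB1. In KO 5H5 the median was -1.38 and only CCNA1 passed. ING1, which reads methylated histone H3, was at 25.9 and 17.3 CPM in EV 1B9 and 4.70 and 5.16 in KO 2F4, with a log2 difference of -2.13 ± 0.48 (SE, adjusted p = 0.0126; 0.0683 without EV 1B9 1). TFDP1, which pairs with E2F factors on DNA, was at 120 and 96.2 CPM in EV 1B9 and 50.0 and 38.2 in KO 2F4. Its difference of -1.30 ± 0.41 missed the threshold (adjusted p = 0.0530) and met it with the correction (adjusted p = 0.0183). CUL4A, a scaffold of ubiquitin ligases, was at 51.5 and 53.2 CPM in EV 1B9 against 18.0 to 35.6 in the other 6 libraries, and did not pass in any pair.

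Of 11 members in DNA repair and replication, 5 were lower in KO 2F4 than in EV 1B9, among them HMGB1, MZT1, PARP4 and PDS5B (list median -1.66), and the list median in KO 5H5 was -1.41. With the correction 4 were called in KO 2F4, MZT1 again among them. MZT1 is a centrosome gene that was counted both here and in the next list. PARP4, the ADP-ribosyltransferase of vault particles, was at 11.3 and 13.5 CPM in parental, 44.6 and 64.6 in EV 1B9, 20.2 and 24.3 in KO 5H5, with 21.2 and 10.8 in KO 2F4. Both EV 1B9 libraries were highest, and its call in KO 2F4 (log2 fold change -1.77, adjusted p = 0.0242) was lost without EV 1B9 2 or KO 2F4 2. HMGB1, an abundant chromatin protein, was at 187 and 171 CPM in EV 1B9 and 62.8 and 50.7 in KO 2F4, with a log2 difference of -1.66 ± 0.40 (SE, adjusted p = 0.0169). HMGB1 did not pass without KO 2F4 2 (adjusted p = 0.0785) or with the correction (adjusted p = 0.319). LIG4, the end-joining ligase, had at most 3.91 CPM and did not pass.

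Of 16 members in cell division and the centrosome, 4 were lower in KO 2F4 than in EV 1B9 (CCNA1, DIAPH3, MZT1 and SKA3, list median -1.27) and CCNA1 alone in KO 5H5 (median -0.97). With the correction the former were CCNA1 and MZT1 only. MZT1, which recruits gamma-tubulin rings to the centrosome, was at 15.2 and 20.7 CPM in EV 1B9 and 3.58 and 1.24 in KO 2F4. It was lower by 2.88 ± 0.65 (log2, SE, adjusted p = 0.0127), without any 1 library and with the correction too (adjusted p = 0.0251). SKA3, of the kinetochore, was at 39.7 and 35.4 CPM in EV 1B9 and 16.5 and 9.89 in KO 2F4, with a log2 difference of -1.51 ± 0.45 (SE, adjusted p = 0.0408), and missed the threshold with the correction (0.132). It was also lost without either EV 1B9 library, KO 5H5 2 or KO 2F4 2.

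Of 26 members in transcription and chromatin, 10 were lower in KO 2F4 than in EV 1B9 (list median -1.79) and 3 in KO 5H5 (GTF3A, KLF5 and ZIC2, median -1.32). With the correction the counts were 8 and 3. KLF5 was at 29.3 and 19.7 CPM in parental, 59.2 and 75.8 in EV 1B9, 18.7 and 18.9 in KO 5H5, with 11.6 and 8.29 in KO 2F4. Both knockout clones were below both controls in every library. KLF5 had a log2 fold change against EV 1B9 of -2.76 ± 0.44 in KO 2F4 (SE, adjusted p = 0.00171, with every single library left out too) and of -1.84 ± 0.43 in KO 5H5 (adjusted p = 0.0244, lost without EV 1B9 2 or either KO 5H5 library). GTF3A, the 5S ribosomal RNA factor TFIIIA, was at 140 CPM in EV 1B9 1 but 37.1 in EV 1B9 2, and at 14.9 to 22.7 elsewhere, and its calls against EV 1B9 were lost without EV 1B9 1. ZC3H13, of the RNA methyladenosine writer complex, was at 26.5 and 39.0 CPM in EV 1B9 and 4.41 and 6.18 in KO 2F4, with a log2 difference of -2.63 ± 0.48 (SE, adjusted p = 0.00427) whichever library was left out. MPHOSPH8, of the silencing complex HUSH, was at 17.9 and 19.4 CPM in EV 1B9 and 3.33 and 3.71 in KO 2F4, with a log2 difference of -2.41 ± 0.52 (SE, adjusted p = 0.0106), likewise without any 1 library. CDK8, the kinase of the Mediator complex, was at 6.15 and 8.58 CPM in EV 1B9 and 2.01 to 3.68 elsewhere, and did not pass (KO 2F4 against EV 1B9 -1.81 ± 0.64, SE, adjusted p = 0.0744). FOXO1, a target of AKT, was at 3.61 to 10.8 CPM in the controls and at 0 to 2.99 in the knockout clones but did not pass in any pair.

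Of 22 members in RNA processing, translation and nuclear transport, 4 were lower in KO 2F4 than in EV 1B9 (KPNA3, PAN3, UPF3A and ZC3H13, list median -1.71) and TPT1 alone in KO 5H5 (median -1.14). KPNA3, an importin alpha, was at 24.4 and 34.9 CPM in EV 1B9 and 9.45 and 3.71 in KO 2F4, with a log2 difference of -2.16 ± 0.54 (SE, adjusted p = 0.0197; 0.0906 without KO 2F4 2). With the correction, ZC3H13 was the only one of the 4 that still passed. TPT1, the tumour protein TCTP, was at 805 CPM in EV 1B9 1 and at 90.0 to 211 in the other 7 libraries, so its call rests on EV 1B9 1. Processed copies of TPT1 elsewhere in the genome make its counts uncertain.

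Of 24 members in ubiquitin and protein quality, 8 were lower in KO 2F4 than in EV 1B9 (list median -2.06) and DNAJC15 alone in KO 5H5 (median -1.44). With the correction, 3 were called in KO 2F4 (MYCBP2, UBAC2 and USP12) and UBAC2 alone in KO 5H5. USP12, a deubiquitinase, was at 8.85 and 20.8 CPM in EV 1B9 and 1.03 and 1.96 in KO 2F4, with a log2 difference of -3.32 ± 0.71 (SE, adjusted p = 0.00962) whichever library was left out. DNAJC15, a mitochondrial co-chaperone, was at 125 CPM in EV 1B9 1 but 40.5 in EV 1B9 2, and at 12.9 to 24.8 in the others. Its calls in both clones were lost without EV 1B9 1 and with the correction (adjusted p = 0.0673 in KO 5H5 and 0.158 for KO 2F4). MYCBP2, a large ubiquitin ligase, was at 4.91 and 16.2 CPM in EV 1B9 and 1.37 and 0.364 in KO 2F4, with a log2 difference of -3.56 ± 0.85 (SE, adjusted p = 0.0165), a call lost without EV 1B9 2 (0.108).

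Of 21 members in growth factor, kinase and small GTPase signalling, 4 were lower in KO 2F4 than in EV 1B9 (AKAP11, DOCK9, EFNB2 and TNFRSF19, list median -1.41) and none passed in KO 5H5 (median -1.12). With the correction EFNB2, GAS6 and TNFRSF19 were called. EFNB2, an ephrin that signals through Eph receptors, was at 3.91 and 6.84 CPM in parental, 19.8 and 23.2 in EV 1B9, 10.4 and 8.64 in KO 5H5, with 2.25 and 1.31 in KO 2F4. The 4 lines did not overlap, and EFNB2 was lower in KO 2F4 than in EV 1B9 (log2 fold change -3.58, SE 0.57, adjusted p = 0.00157) whichever library was left out. AKAP11 anchors the cAMP-dependent kinase PKA. It was at 4.37 and 18.6 CPM in EV 1B9 and 1.57 and 0.291 in KO 2F4, with a log2 difference of -3.58 ± 0.95 (SE, adjusted p = 0.0258), a call lost without EV 1B9 2 (0.214) or with the correction (0.0954). LATS2 did not pass in any pair, at 9.23 and 10.6 CPM in EV 1B9 and 8.57 and 5.02 in KO 2F4.

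Of 11 members in extracellular matrix, adhesion and cytoskeleton, 4 were lower in KO 2F4 than in EV 1B9 (DIAPH3, FNDC3A, LMO7 and PCDH9, list median -2.18) and PCDH9 alone in KO 5H5 (median -1.36). With the correction COL4A1 and LHFPL6 stood in place of DIAPH3 and LMO7. FNDC3A, a fibronectin type III domain protein, was at 10.7 and 34.2 CPM in EV 1B9 and 3.62 and 1.67 in KO 2F4, and its call (log2 fold change -3.07, adjusted p = 0.0160) was lost without EV 1B9 2. COL4A1 and COL4A2, whose products form the basement membrane's collagen IV, lie head to head and overlap in this annotation. COL4A1 was at 199 and 355 CPM in parental, 280 and 819 in EV 1B9, 337 and 504 in KO 5H5, with 199 and 217 in KO 2F4. COL4A2 was at 726 and 1025, 601 and 1483, 1019 and 1202, and 555 and 588 CPM in the same order. Neither passed in any pair, though COL4A1 did in KO 2F4 against EV 1B9 with the correction (-1.76, adjusted p = 0.0225), and the libraries of EV 1B9 differed most from each other. WASF3, an actin regulator outside this list, was at 6.26 and 9.30 CPM in EV 1B9 and 0.228 and 0.802 in KO 5H5, with a log2 difference of -3.86 ± 0.83 (SE, adjusted p = 0.0157), a call lost without EV 1B9 2 or KO 5H5 1.

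Of 28 members in metabolism, mitochondria and transport, 8 were lower in KO 2F4 than in EV 1B9 (list median -1.62) and 2 in KO 5H5, among them ITM2B (median -1.23). With the correction the counts were 6 and 4. ATP11A, a phospholipid flippase, was at 32.6 and 69.3 CPM in EV 1B9 and 7.59 and 6.25 in KO 2F4, with a log2 difference of -2.88 ± 0.55 (SE, adjusted p = 0.00509) whichever library was left out and with the correction (0.00227). ABCC4, a transporter that exports cyclic nucleotides, was at 7.83 and 13.7 CPM in parental, 17.3 and 26.5 in EV 1B9, 4.11 and 7.11 in KO 5H5, with 6.37 and 7.56 in KO 2F4. All knockout libraries were below all controls, yet both differences from EV 1B9 missed the threshold, with log2 values of -1.96 ± 0.52 for KO 5H5 (SE, adjusted p = 0.050009) and -1.65 ± 0.52 for KO 2F4 (0.0508). Of 4 members that host non-coding RNAs, among them DLEU1 and DLEU2, none passed in any pair, and DLEU1 and DLEU2 overlap each other and stood at 2.10 CPM or less.

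A few low genes had next to no counts in 1 line. With all libraries and the count filter, TRPC4, a cation channel, was the only member that edgeR called higher in a clone than in EV 1B9. TRPC4 had 0 and 1 counts in EV 1B9, 6 and 6 in parental, 43 and 144 in KO 5H5, then 38 and 0 in KO 2F4 (KO 5H5 adjusted p = 0.0414, lost without EV 1B9 1 or KO 5H5 2). SLAIN1, a microtubule growth factor, had 162 and 59 counts in EV 1B9 and 1 and 0 in KO 5H5 (adjusted p = 0.0197, lost without EV 1B9 1 or KO 5H5 2). OBI1, a ubiquitin ligase of the replication origin complex, had 83 and 86 counts in EV 1B9 and 1 and 0 in KO 2F4 (adjusted p = 0.0122, kept without any 1 library). IL17D, a cytokine of the interleukin-17 family, had 92 and 37 counts in EV 1B9 and 1 and 0 in KO 2F4 (adjusted p = 0.0372, lost without EV 1B9 1). NAA16, a subunit of an N-terminal acetyltransferase, had 102 and 142 counts in EV 1B9 and 8 and 0 in KO 2F4 (adjusted p = 0.0293, lost without EV 1B9 2 and, at 0.0528, with the correction). The pseudogene ANKRD20A19P had 0 counts in both KO 2F4 libraries, 14 and 28 in KO 5H5, 124 and 59 in EV 1B9 and 14 and 56 in parental.

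In EV 1B9 against parental, 3 members were called (1.28%, background 1.34%). At an unadjusted p under 0.05 there were 76 members, a threshold for which no background was counted. PARP4 was higher, with a log2 difference of 2.14 ± 0.47 (SE, adjusted p = 0.0389, lost without parental 1 or EV 1B9 2), and GTF3A with 2.39 ± 0.55 (adjusted p = 0.0497, lost without parental 1 or EV 1B9 1). IRS2, the adaptor of the insulin receptor, went the other way, at 17 and 16 CPM in parental, 3.67 and 3.99 in EV 1B9, 12 and 13.4 in KO 5H5, with 7.25 and 6.04 in KO 2F4. Its log2 fold change was -2.11 ± 0.48 (SE, adjusted p = 0.0490), a call lost with the correction (-1.35, adjusted p = 0.174) and without parental 1 or any library of EV 1B9 or KO 5H5. The number of members called changed with the library left out, and so did the share of all genes called. Nothing is read from those numbers about the chromosome. DESeq2 called 36, of which 34 were higher, over a background of 8.72%, and edgeR with the correction 5, all higher, over a background of 1.79%.

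Against parental, KO 5H5 had 1 called member, ZIC2 (0.427%, background 0.752%), and KO 2F4 had 3 (1.28%, background 1.34%). With the correction KO 2F4 had 6, all lower, over a background of 3.15%. The 3 were ZIC2, ANKRD20A19P and SHISA2, and each held whichever library was left out. SHISA2, which holds back FGF and Wnt receptors in the endoplasmic reticulum, was at 5.27 and 9.65 CPM in parental, 4.40 and 3.91 in EV 1B9, 2.34 and 1.68 in KO 5H5, with 0.490 and 0 in KO 2F4. Its difference from parental was -4.78 ± 1.01 in KO 2F4 (log2, SE, adjusted p = 0.0323). The numbers of members called in the clones against parental changed with the library left out. Between the clones, edgeR called 0 members (background 0.399%) and DESeq2 called 2, over a background of 2.14%. At an unadjusted p under 0.05 there were 28 members, again with no background counted. The number of members edgeR called between the clones also changed with the library left out. For the clones against parental and against each other, the share of all genes called also changed with the library left out. Nothing is read from those counts. With the correction edgeR called EFNB2 and GAS6 between the clones, both lower in KO 2F4, over a background of 0.875%.

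The pathways of RB1 and BRCA2 were also read on other chromosomes. Of 21 RB and E2F genes tested there, CCND3, CDK4 and CDKN1A were higher and CDKN1B and CDKN2C lower in KO 2F4 than in EV 1B9, while none passed in KO 5H5 against EV 1B9. Of all genes tested in KO 2F4 against EV 1B9, 6.87% were called higher and 6.09% lower. With the correction CCND3 (adjusted p = 0.0949) and CDK4 (0.112) did not pass and CDKN2D was called lower. CDKN1A, the CDK inhibitor p21, was at 7.90 and 5.40 CPM in EV 1B9 and 57.0 and 47.7 in KO 2F4. Of 19 homologous recombination genes, NBN alone was lower in KO 2F4 than in EV 1B9, and none passed in KO 5H5. The median of those 19 in KO 2F4 against EV 1B9 was -0.54 and changed sign with the correction, to 0.19. With it NBN did not pass (adjusted p = 0.190), and 1 gene of the 19 was called higher. BRCA1 did not pass, at 8.20 and 24.4 CPM in EV 1B9 and 2.79 and 6.47 in KO 2F4.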

How the data were processed

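Total RNA of 8 SKOV3 cultures was sequenced from directional libraries, per the labels. The authors deposited 1 table of raw counts per gene; its 5 summary lines (24.1% to 44.6% of counted reads) stayed out of library sizes and tests. The submitters' processing notes name STAR 2.7.3a, HTSeq 0.11.3, DESeq2 1.26.0, bcl2fastq 2.18.0.12 and GRCh38. No source used here gives the annotation release or strand setting, and 47 members overlap another counted gene. GENCODE 29 placed 58561 identifiers (87.4%), and 188 others with at least 80 counts were not used here.

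The chromosome, its members, the gene lists and the tests were chosen with earlier results of these data known. Counts were filtered with filterByExpr (minimum count 10, total 15), scaled with TMM and tested with edgeR 4.0.16 (R 4.3.3, quasi-likelihood, Benjamini-Hochberg adjustment over all genes tested, 0.05). Pairs used 1 mean per line and a shared spread, so their p-values measure the spread between passages, and knockout against control used 2 classes of 4 libraries. Log2 CPM used a prior count of 2. The GC and length correction used splines (5 degrees of freedom) on GENCODE 29 gene models. Only the edgeR contrast of KO 2F4 against EV 1B9 with TMM was run on simulated counts, which held no GC or length trend. The correction and the other fits were not run on simulated counts. With a library left out, the lone one of its line was assumed to vary like the others.

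Named genes were RB1, BRCA2, a set of 15, the 6 with the highest mean CPM, the 5 largest called rises and falls of protein-coding members per comparison (mean at least 1 CPM), the 2 smallest p-values of each list, and 3 rows on either side of the threshold. N4BP2L2, STARD13, RCBTB2, SUCLA2, PDS5B, HMGB1, SKA3, MPHOSPH8, MYCBP2, AKAP11, RPL21, ANKRD20A19P, ENSG00000285588 and genes named only in lists were added after their values were seen. Some genes are not reported here. Alternatives were RLE size factors, no filter, a higher count minimum, DESeq2 1.42.0, the title suffix as a block, the correction, and each library left out.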

Additional observations from a re-analysis of the deposited data

How the results depend on the processing

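Of 112 alternative values of the 7 median shifts, 88 moved by less than the spread between libraries of a line (0.18), none changed sign, and 24 moved by more or reached 0. With each library left out in turn, the shift ranged from 0.76 to 1.08 in EV 1B9 against parental, -0.40 to -0.12 in KO 5H5 and -0.71 to -0.43 in KO 2F4 against parental. It ranged from -1.28 to -0.93 in KO 5H5 and -1.73 to -1.32 in KO 2F4 against EV 1B9, -0.45 to -0.20 between the clones and -1.02 to -0.71 in knockout against control. With a minimum of 1 count, the shift was 0.065 in EV 1B9 and -0.36 in KO 2F4 against parental, -0.26 and -0.34 against EV 1B9, 0 between the clones and -0.31 in knockout against control. A minimum of 800 counts gave 1.20 in EV 1B9 against parental.

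The GC and length correction gave 0.33 in EV 1B9 and -0.40 in KO 5H5 against parental, -0.79 and -1.02 against EV 1B9 and -0.19 between the clones, and moved the other shifts by less. Added after the data were seen, the correction without the 2 libraries with the most unassigned reads gave 0.30, -0.51, -0.79, -0.91 and -0.074 in the same order, and TMM without them gave -0.21 between the clones.

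Counts of called members moved more, and the share of all genes called changed between settings too. In the order EV 1B9, KO 5H5 and KO 2F4 against parental, KO 5H5 and KO 2F4 against EV 1B9, KO 2F4 against KO 5H5 and knockout against control, leaving out 1 library gave 0 to 61, 0 to 10, 3 to 34, 6 to 62, 38 to 116, 0 to 32 and 1 to 7. No filter gave 26, 2, 5, 25, 79, 3 and 20, over backgrounds of 2.69%, 0.86%, 1.47%, 2.96%, 7.53%, 0.853% and 2.15%. Of the 79, 2 were higher. DESeq2 gave 36 in EV 1B9 against parental, 2 between the clones and 27 in knockout against control, over backgrounds of 8.72%, 2.14% and 5.81%. It gave 4, 9, 45 and 92 in the other pairs, from which nothing is read. The correction gave 5 in EV 1B9 and 6 in KO 2F4 against parental, over backgrounds of 1.79% and 3.15%. It gave 2 between the clones and 12 in knockout against control, over 0.875% and 3.83%. Without the 2 libraries named above the counts were 8, 9, 5, 76, 8 and 11, again leaving out KO 2F4 against EV 1B9. Counts summed per line gave 0 in knockout against control with edgeR, with 33 members at an unadjusted p under 0.05. The cause of these moves was not tested.

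The shared title suffix used as a replicate block gave 1, 0, 1 and 2 in the 3 pairs with parental and in knockout against control. The backgrounds were 0.952%, 0.566%, 0.945% and 0.911%. With the correction the block gave 0 in KO 5H5 and 6 in KO 2F4 against parental, over 1.07% and 2.58%. It gave 35 in KO 2F4 against EV 1B9, 2 between the clones and 2 in knockout against control, over 10.4%, 0.791% and 1.98%. Without the correction the block gave 13 in KO 5H5 and 43 in KO 2F4 against EV 1B9, over backgrounds of 3.37% and 8.96%. Same-suffix libraries had no common direction over the lines, with correlations from 0.24 between parental and KO 5H5 to -0.22 between the knockout clones. The block is therefore reported only here. Of 392 alternative values of 28 gene results, 302 kept their side of the threshold, 73 lost it, 17 gained it and 0 changed sign. Low members such as BRCA2 and LIG4 have few counts per library, and what part that had in their missing calls was not tested.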

Other observations

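The counts of chromosome 13 are held by few genes. COL4A2 took 15.1% of all member counts, LAMP1, a lysosomal membrane protein, 8.67%, the non-coding LINC03061 8.39%, COL4A1 6.37%, TPT1 4.77% and RPL21 3.15%. LAMP1 was at 522 and 693 CPM in parental, 535 and 743 in EV 1B9, 399 and 450 in KO 5H5, with 311 and 468 in KO 2F4. Every knockout library was below every control, but LAMP1 was not called in any pair. LINC03061 was at 176 CPM in KO 2F4 1 and 899 in KO 2F4 2, a distance as wide as that between any of the lines.

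Libraries of 1 line differed most in KO 2F4, where the median member moved by 0.78 on the log2 scale between them, against 0.51 in KO 5H5. Genes of other chromosomes moved by nearly as much, 0.75 in KO 2F4 and 0.50 in KO 5H5, so this spread is not particular to chromosome 13. XPO4, a nuclear exporter, had 80 counts in KO 2F4 1 and 0 in KO 2F4 2, and CENPJ, of the centriole, 20 and 0. GAS6, the ligand of the TAM receptors, was at 84.4 and 172 CPM in KO 2F4 and 146 or more in the other lines. A criterion for a stray library was applied only to the share and median shift per library and to RB1, BRCA2, PCDH9, DCLK1, CCNA1, ZIC2 and ITM2B. None met it in the 20 groups of 4 examined, and the other members were not examined. XPO4, CENPJ and LINC03061's spread were chosen after their values were seen.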
